A study of Mus musculus with 6 samples.

Results

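A set of 10 mouse genes that act at fertilization or move calcium in the egg were followed in oocytes with and without the RNA acetyltransferase NAT10. They were chosen by symbol, and all 10 were found among the 55291 gene symbols of the count table: Izumo1r, Cd9, Cd81, Astl, Itpr1, Stim1, Orai1, Atp2a2, Trpm7 and Cacna1h. NAT10 writes N4-acetylcytidine into RNA, and the title of the series places its question in translational control as oocytes mature. The WT group was 3 libraries from WT females, and the Nat10 cKO group was 3 libraries from Gdf9-cre Nat10 conditional knockout females, in which Cre driven by the Gdf9 promoter acts in oocytes and leaves Nat10 in the surrounding cells. Each library was a pool of 10 oocytes, called fully growing (FGO) in the labels, from mature females that had received PMSG, a gonadotropin that stimulates follicles, 32 to 48 h earlier by 1 label and 36 to 48 h by another. The females' exact age and strain are not given, nor is it given whether WT females carried floxed alleles or whether pools came from different females. The p-values therefore measure the spread between pools. Because each value averages a pool, a large change in a few oocytes and a small change in all of them cannot be told apart.

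Sperm bind the egg membrane when IZUMO1 on the sperm meets JUNO, the folate receptor relative encoded by Izumo1r, and fusion needs the tetraspanin CD9. Fusion delivers a sperm phospholipase that raises inositol trisphosphate, which opens the receptor ITPR1 on the endoplasmic reticulum and starts calcium oscillations. SERCA2, encoded by Atp2a2, refills the store, while entry across the plasma membrane runs through channels such as TRPM7 and the T-type channel CACNA1H. ORAI channels open when STIM proteins sense an empty store, and whether the egg relies on them at fertilization was not tested here. Calcium also triggers exocytosis of cortical granules, which release the protease ovastacin, encoded by Astl, to cleave ZP2 and block further sperm. Fully grown oocytes store the mRNAs for much of this machinery before they can be fertilized.

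The libraries held between 33.5 M and 74.1 M reads and 23044 to 26440 detected genes. Nat10 (chromosome 2, 103721256 to 103761270, GRCm38) measured 42.1, 50.1 and 39.4 CPM (read counts scaled to equal library totals) in WT and 5.72, 5.97 and 6.32 CPM in Nat10 cKO libraries. TMM factors entered every CPM given here, so a level is read against that of most other genes in its library. All 12 oocyte markers examined were tested, with summed levels of 24641 to 25385 CPM in WT against 28754 to 33739 CPM in Nat10 cKO libraries. At a limma adjusted p below 0.05, 8 of the 12 were higher in Nat10 cKO and 3 lower (Dppa3, Ooep and Oosp1). Of all 18353 tested genes, 17.4% were higher and 17.6% lower. The 14 granulosa markers summed to 531 to 618 CPM in WT against 462 to 502 CPM in Nat10 cKO libraries, with Serpine2 and Esr2 as their most abundant genes. The defining granulosa genes Amh and Foxl2 averaged 0 and 0.0399 CPM in WT against 0.0691 and 0.123 CPM in Nat10 cKO libraries. The 10 blood and immune markers summed to 51.2 to 55.9 CPM in WT against 41.3 to 44.6 CPM in Nat10 cKO libraries, and the 12 theca, stroma and endothelium markers to 95.6 to 102 and 93.5 to 108 CPM. C1qb made up most of the blood and immune sum (44.0 and 32.1 CPM on average), while C1qa had 0 to 6 reads. Of 4 blood and immune markers tested, 0 were higher and 1 lower. Of 7 theca, stroma and endothelium markers tested, 1 was higher (Pecam1) and 2 lower. The sums therefore do not measure how much of a cell type was present. The part of other cells in the results below was not tested.

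The members spanned a wide range of levels. Per kilobase of annotated exon, Astl (259 CPM per kb on average in WT), Izumo1r (181), Cd9 (105), Atp2a2 (71.7) and Orai1 (38.1) stood above Trpm7 (7.13), Itpr1 (5.78) and Cacna1h (2.05), with Cd81 (0.543) and Stim1 (0.397) at the bottom. Among 17930 tested genes with a length, these WT levels ranked from 184 for Astl to 13747 for Stim1. The WT ranges of Trpm7 and Itpr1 overlapped, as did those of Cd81 and Stim1, and no other neighbours in this order overlapped. With the longest annotated transcript as the length, Izumo1r (325 CPM per kb) stood above Astl (279), and the rest of the order was the same.

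**Figure D1:**
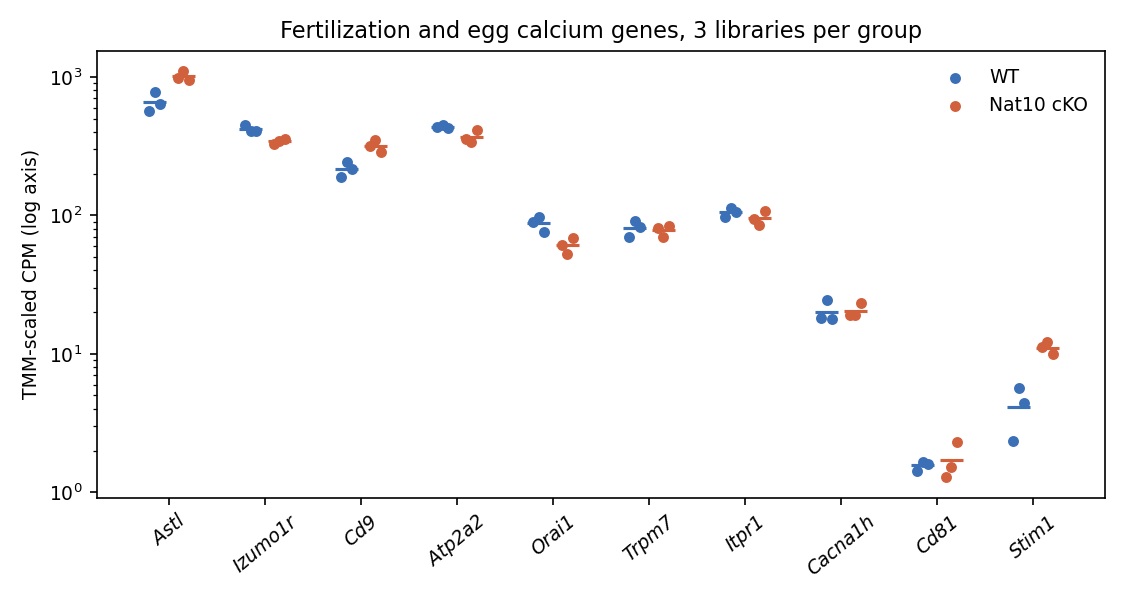
TMM-scaled CPM (log axis) of the 10 genes in each library, ordered by WT level per kb, with 3 WT and 3 Nat10 cKO libraries as points and group means as bars. Stim1 shows the widest gap, with WT libraries between 2.35 and 5.63 CPM and Nat10 cKO libraries between 9.99 and 12.1 CPM, and the groups also separate for Cd9, Astl, Izumo1r, Orai1 and Atp2a2.

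In Nat10 cKO oocytes Stim1, Astl and Cd9 were higher and Izumo1r and Orai1 lower, while Atp2a2, Itpr1, Trpm7, Cacna1h and Cd81 did not pass. That makes 5 of 10 called at a limma adjusted p below 0.05, where 35.0% of the 18353 tested genes were called. By direction, 3 were higher (17.4% of tested genes) and 2 were lower (17.6%). The groups did not overlap for 6 of the 10, against 48.3% of all tested genes. The median log2 change was -0.00049 over the members and 0.00096 over all tested genes. All log2 changes are Nat10 cKO minus WT on the log2(CPM + 1) scale, on which the changes of scarce genes come out smaller.

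**Figure D2:**
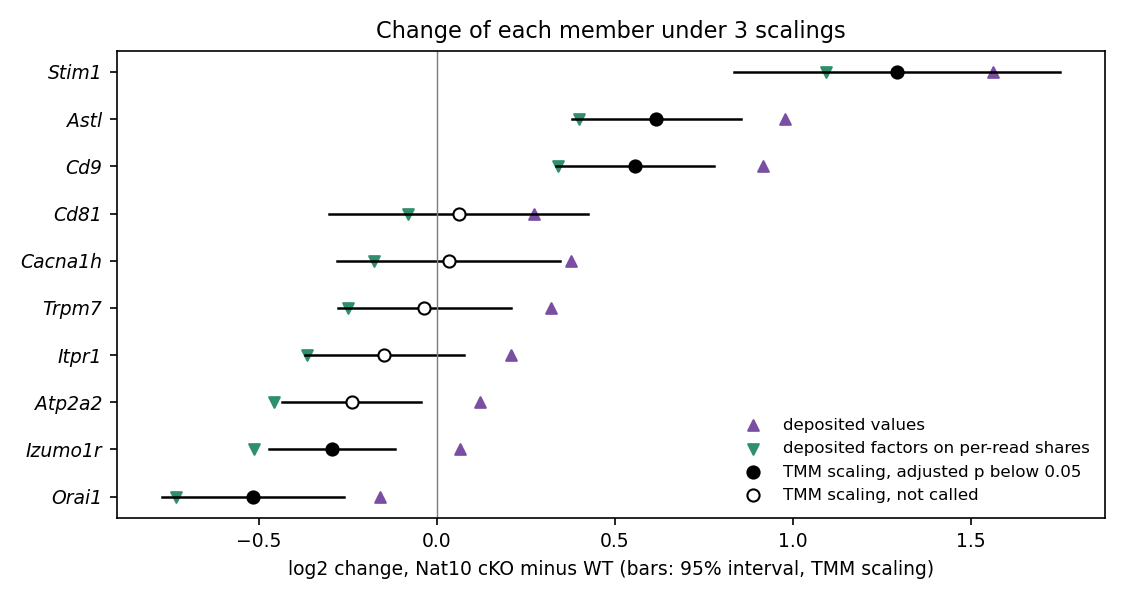
Log2 change (Nat10 cKO minus WT) of each of the 10 genes with its 95% interval under TMM scaling (circles, filled where called), beside the deposited values (upward triangles) and the deposited factors on per-read shares (downward triangles). Stim1, Astl and Cd9 lie above 0 and Orai1 below 0 under all 3 scalings, whereas Izumo1r is at -0.29, 0.066 and -0.51.

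The RefSeq windows at the starts of these genes (GRCm38.p6, 250 bases before to 50 after the start) were matched for 7 of the 10 genes. They are shown for Izumo1r, Astl and Stim1, which are the abundant pair at the egg surface and in cortical granules and the gene with the largest change. Capitals mark the E-box CANNTG, which reads the same on both strands and is the letter pattern bound by the oocyte factor FIGLA and its partners, in the Izumo1r and Astl windows. In the Stim1 window they mark the GC box GGGCGG on either strand, where adjoining copies may run together.
Izumo1r, chr9:14903718-14904017, minus strand: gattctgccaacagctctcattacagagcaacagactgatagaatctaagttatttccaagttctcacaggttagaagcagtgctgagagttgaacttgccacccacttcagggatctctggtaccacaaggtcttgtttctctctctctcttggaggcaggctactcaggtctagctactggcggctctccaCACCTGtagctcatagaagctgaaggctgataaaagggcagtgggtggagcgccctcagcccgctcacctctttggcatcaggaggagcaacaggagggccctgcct
Astl, upstream start, chr2:127338389-127338688, plus strand: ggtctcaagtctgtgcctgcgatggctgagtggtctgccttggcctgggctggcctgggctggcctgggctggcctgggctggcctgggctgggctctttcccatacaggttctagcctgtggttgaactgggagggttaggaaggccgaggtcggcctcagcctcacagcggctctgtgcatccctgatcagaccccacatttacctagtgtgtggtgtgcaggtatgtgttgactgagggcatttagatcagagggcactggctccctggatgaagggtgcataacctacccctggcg
Astl, downstream start, chr2:127341386-127341685, plus strand: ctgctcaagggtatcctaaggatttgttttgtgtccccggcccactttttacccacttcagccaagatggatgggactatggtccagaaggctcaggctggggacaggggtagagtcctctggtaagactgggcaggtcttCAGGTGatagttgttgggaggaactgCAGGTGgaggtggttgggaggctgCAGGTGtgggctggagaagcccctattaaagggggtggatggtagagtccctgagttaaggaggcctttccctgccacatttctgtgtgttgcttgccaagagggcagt
Stim1, chr7:102267569-102267868, plus strand: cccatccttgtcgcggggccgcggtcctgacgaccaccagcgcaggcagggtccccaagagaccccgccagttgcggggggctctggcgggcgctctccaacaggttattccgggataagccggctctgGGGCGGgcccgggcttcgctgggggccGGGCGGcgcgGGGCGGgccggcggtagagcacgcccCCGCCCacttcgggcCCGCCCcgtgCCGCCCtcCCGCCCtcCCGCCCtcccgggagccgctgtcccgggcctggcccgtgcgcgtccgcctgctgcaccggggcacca
The Izumo1r window held 1 E-box, the upstream Astl window 0 and the downstream Astl window 3, each of these 3 spelled CAGGTG. The Cd9 and Trpm7 windows held 3 E-boxes each, and the Stim1, Orai1 and Cd81 windows 1 each. E-boxes were common, in 72.3% of 32851 windows of the same length. The Stim1 window held 8 GC boxes and was 78.7% G and C. The Cd9 window held 2 GC boxes and the Orai1 and Cd81 windows 3 each, and Izumo1r, Astl and Trpm7 held none. A GC box was found in 35.7% of all windows. These letters describe the windows and do not show that a factor binds there.

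Of the egg surface genes, Cd9 rose and Izumo1r fell under TMM scaling, and Izumo1r changed sign on the deposited scale described further on. Cd9 (chromosome 6, 125460266 to 125494791, GRCm38) encodes the tetraspanin that egg membranes need for fusion. It measured 190, 242 and 214 CPM in WT replicates 1, 2 and 3, and 314, 348 and 288 CPM in Nat10 cKO replicates 1, 2 and 3. Every Nat10 cKO library was above every WT library, and the mean rose from 215 ± 25.6 to 317 ± 29.9 CPM (SD, n = 3 per group). The log2 change was 0.56 (SE 0.104, limma adjusted p = 0.00134). Izumo1r (chromosome 9, 14885814 to 14903949) encodes JUNO, the receptor for sperm IZUMO1. Its levels were 445, 408 and 405 CPM in WT against 326, 344 and 354 CPM in Nat10 cKO libraries. The groups did not overlap, and the fall, from 419 ± 22.3 to 342 ± 14.4 CPM (SD, n = 3 per group), was a log2 change of -0.29 (SE 0.0821, limma adjusted p = 0.0138). Its call was lost without WT replicate 1 (limma adjusted p = 0.0620) or without Nat10 cKO replicate 1 (limma adjusted p = 0.0950).

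Cd81, the tetraspanin closest to Cd9 in role, was barely present. It had 1.42, 1.67 and 1.60 CPM in WT against 1.28, 1.51 and 2.32 CPM in Nat10 cKO libraries, from 46 to 168 reads. The groups overlapped, with a log2 change of 0.061 whose 95% interval ran from -0.30 to 0.42. Within the Cd9, Cd81 and Cd151 family, Cd9 held 90.2 ± 0.542% of the level per kb in WT and 93.3 ± 0.749% in Nat10 cKO libraries (SD, n = 3 per group), and Cd81 held 0.466% and 0.364%. Cd151, another tetraspanin, had a log2 change of -0.050 (limma adjusted p = 0.761). Izumo1r held 99.975% of its family on average in WT and 99.957% in Nat10 cKO libraries, and the folate receptor genes Folr1 and Folr2 had between 0 and 10 reads in every library.

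Astl (chromosome 2, 127338639 to 127357651), the gene for the cortical granule protease ovastacin, rose beside Cd9. It measured 568, 783 and 637 CPM in WT against 986, 1100.4 and 944 CPM in Nat10 cKO libraries. WT replicate 1 was the lowest of the 6 libraries for both genes, and Nat10 cKO replicate 2 the highest. The mean went from 663 ± 110 to 1010.0 ± 81.1 CPM (SD, n = 3 per group), a log2 change of 0.62 (SE 0.110, limma adjusted p = 0.00107). Among 8505 genes of at least 10 CPM, the 3 whose centred log2 profile over the 6 libraries lay closest to that of Astl were Prmt7, Fgfr1op and Dock1, at root mean square distances of 0.0147, 0.0274 and 0.0301. Close profiles are easily found among so many genes over 6 libraries, and shared regulation was not tested.

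Ratios of reads within 1 library do not depend on how libraries are scaled. Of 9 ratios examined, some were chosen after the values were seen. Astl had 1.28, 1.92 and 1.57 reads per Izumo1r read in WT and 3.02, 3.20 and 2.66 in Nat10 cKO libraries. Cd9 had 0.428, 0.592 and 0.529 reads per Izumo1r read in WT and 0.964, 1.01 and 0.814 in Nat10 cKO libraries. Both ratios were higher in 3 of 3 Nat10 cKO libraries, by 1.88-fold and 1.81-fold. The exact permutation test gave p = 0.1 for each, the smallest that 20 assignments allow (two-sided, 0.15 adjusted over the 9 ratios, n = 3 per group). Astl and Cd9 had already separated upward and Izumo1r downward in these libraries, so both outcomes were fixed and add no further evidence. The ratio of Astl to Cd9 was 2.97 to 3.24 in WT and 3.14 to 3.27 in Nat10 cKO libraries, which overlap (exact permutation p = 0.3).

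**Figure D3:**
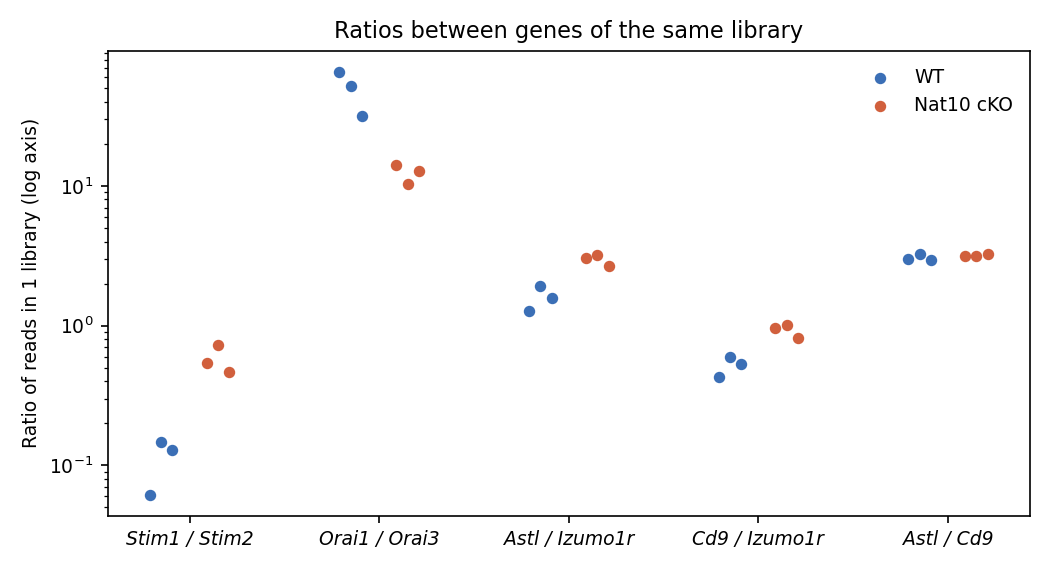
Ratio of reads between 2 genes of the same library (log axis), with 3 WT and 3 Nat10 cKO libraries as points. Stim1 to Stim2, Astl to Izumo1r and Cd9 to Izumo1r are higher and Orai1 to Orai3 is lower in every Nat10 cKO library, while Astl to Cd9 stays near 3 in both groups, with means of 3.07 and 3.19.

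The largest change among the members was that of Stim1, in store-operated calcium entry. Stim1 (chromosome 7, 102267806 to 102437319) encodes a sensor of calcium in the endoplasmic reticulum that opens ORAI channels. It measured 2.35, 5.63 and 4.38 CPM in WT against 11.2, 12.1 and 9.99 CPM in Nat10 cKO libraries. The lowest Nat10 cKO library was well above the highest WT library, and WT replicate 1 was again the lowest. Stim1 rose from 4.12 ± 1.66 to 11.1 ± 1.05 CPM (SD, n = 3 per group), a log2 change of 1.29 (SE 0.213, limma adjusted p = 0.000627), or 1.42 in edgeR, which uses no such pseudocount. The values rest on 76 to 282 reads in WT and 574 to 840 reads in Nat10 cKO libraries. Orai1 (chromosome 5, 123015074 to 123030456), the channel subunit, moved the other way. Its levels were 89.3, 97.2 and 75.8 CPM in WT against 61.2, 52.8 and 68.7 CPM in Nat10 cKO libraries. The groups did not overlap, and Orai1 fell from 87.5 ± 10.8 to 60.9 ± 7.95 CPM (SD, n = 3 per group), a log2 change of -0.52 (SE 0.119, limma adjusted p = 0.00495). Exons of Orai1 overlap those of Gm2479 on the opposite strand, which averaged 122 CPM in WT against 103 CPM in Nat10 cKO libraries (log2 change -0.23, limma adjusted p = 0.0982, or 0.0133 without WT replicate 2). Counting by strand is not stated, so reads of the pair cannot be told apart.

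Their paralogs changed in the opposite direction. Stim2, the other store sensor, measured 38.2, 38.6 and 34.2 CPM in WT against 20.9, 16.6 and 21.6 CPM in Nat10 cKO libraries, a log2 change of -0.88 (SE 0.125, limma adjusted p = 0.000246). Orai3 measured 1.36, 1.87 and 2.39 CPM in WT against 4.33, 5.11 and 5.35 CPM in Nat10 cKO libraries, a log2 change of 1.06 (SE 0.172, limma adjusted p = 0.000581). The groups did not overlap for either gene. Orai3 also passed on the other 2 scales described further on, whereas Stim2 was -0.53 on the deposited values (limma adjusted p = 0.471). Orai2 was at 0 to 2 reads in WT and 4 to 11 reads in Nat10 cKO libraries and was not tested.

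Stim2 remained the more abundant sensor in both groups. Stim1 held 2.96%, 6.74% and 5.97% of the Stim1 and Stim2 level per kb in WT and 21.02%, 26.5% and 18.6% in Nat10 cKO libraries. The groups were far apart, and the mean share rose by 16.8 percentage points, or by 28.0 with the longest transcript as the length, where the means were 11.1% and 39.1%. Orai1 held 98.4%, 98.0% and 96.7% of the Orai family in WT and 92.9%, 90.5% and 92.3% in Nat10 cKO libraries. Reads of Stim1 per read of Stim2 went from 0.0616, 0.146 and 0.128 to 0.538, 0.728 and 0.463, a 5.40-fold rise. Reads of Orai1 per read of Orai3 went from 65.7, 52.1 and 31.7 to 14.1, 10.3 and 12.8, a log2 change of -1.95. For both ratios the groups did not overlap, with the smallest possible exact permutation p of 0.1 (n = 3 per group). Each of these genes had already separated on its own, in opposite directions within each pair. The separation of both ratios was therefore fixed and adds no further evidence. The genes of at least 10 CPM with profiles closest to Stim1 were C1d, Pabpc1 and Heatr3, at root mean square distances of 0.101, 0.114 and 0.119 on the log2 scale. They were likewise selected as the closest, and shared regulation was not tested.

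**Figure D4:**
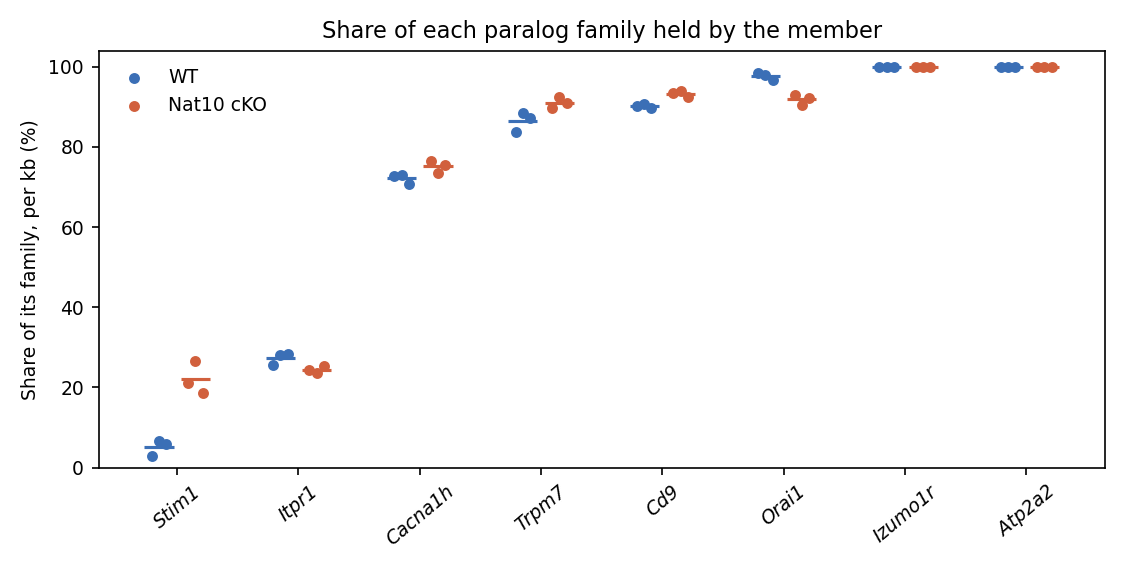
Share of each paralog family's level per kb that the member holds, in percent, with 3 WT and 3 Nat10 cKO libraries as points and group means as bars. Stim1 moves from a mean of 5.22% to 22.1% and Orai1 from 97.7% to 91.9%, while Izumo1r and Atp2a2 make up nearly all of their families in both groups.

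Of the members that release and refill the store, neither Itpr1 nor Atp2a2 passed. Itpr1 (chromosome 6, 108213096 to 108551109), the inositol trisphosphate receptor, measured 97.8, 114 and 106 CPM in WT against 94.2, 85.3 and 107 CPM in Nat10 cKO libraries. The groups overlapped, with a log2 change of -0.15 and a 95% interval from -0.37 to 0.08. Itpr2, which held the larger part of the receptor family per kb (71.3% in WT and 73.1% in Nat10 cKO libraries), had a log2 change of 0.049. Itpr3, the scarcest of the 3, rose from 2.57 to 4.60 CPM on average (log2 change 0.65, limma adjusted p = 0.00908), though it did not pass as deposited (0.0742) or on per-read shares (0.144). Atp2a2 (chromosome 5, 122453513 to 122502225), the pump that refills the store, measured 434, 449 and 425 CPM in WT against 356, 340 and 416 CPM in Nat10 cKO libraries. The groups did not overlap, yet Nat10 cKO replicate 3 lay just under WT, and the log2 change of -0.24 (SE 0.0907) missed the threshold (limma adjusted p = 0.0561). Without Nat10 cKO replicate 3 it passed (log2 change -0.32, limma adjusted p = 0.00931), as it did among the genes averaging at least 1 CPM (limma adjusted p = 0.0475). The other pumps of its family were nearly undetected, with 0 reads of Atp2a1 in every library, which allows up to 0.0401 to 0.0928 CPM, and 4 reads of Atp2a3 in 1 library.

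Trpm7 and Cacna1h, which are plasma membrane channels like Orai1, did not pass. Trpm7 (chromosome 2, 126791565 to 126876230), a channel fused to a kinase that carries calcium and magnesium, measured 69.7, 90.5 and 81.9 CPM in WT against 81.4, 70.1 and 84.2 CPM in Nat10 cKO libraries. Cacna1h (chromosome 17, 25374285 to 25433783), the pore of a T-type calcium channel, measured 17.995, 24.4 and 17.7 CPM in WT against 18.9, 18.9 and 23.4 CPM in Nat10 cKO libraries. Both genes overlapped between groups. The 95% intervals of their log2 changes ran from -0.28 to 0.21 for Trpm7 and from -0.28 to 0.35 for Cacna1h. Trpm6, the relative of Trpm7, fell from 8.50 to 5.35 CPM on average (log2 change -0.60, limma adjusted p = 0.0155), a call lost without WT replicate 1, WT replicate 3 or Nat10 cKO replicate 2 (limma adjusted p between 0.0512 and 0.0663) and as deposited (0.716). Trpm7 held 86.5% of the pair per kb in WT and 91.0% in Nat10 cKO libraries. Cacna1i, the second T-type gene by level, had a log2 change of -0.14 (limma adjusted p = 0.516).

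The deposited values, which carry 1 factor per library from the authors, gave a second scale. They were divided by a common constant, with no correction for library totals. Those totals were 33.5, 47.1 and 61.9 M in WT and 68.2, 43.0 and 66.2 M in Nat10 cKO libraries. Differences in total therefore stayed in this scale. On it the median of all tested genes moved to 0.24, and with the same factors applied to per-read shares it moved to -0.15. Stim1 passed on both, with log2 changes of 1.56 and 1.09 (limma adjusted p = 0.00149 and 0.000474). Cd9 and Astl did not pass on either, at 0.92 and 0.98 as deposited (limma adjusted p = 0.147 and 0.107) and at 0.34 and 0.40 on per-read shares (limma adjusted p = 0.225 and 0.0895). Izumo1r turned to 0.066 as deposited and was -0.51 on per-read shares. Orai1 was -0.16 as deposited (limma adjusted p = 0.855) and -0.73 on per-read shares (limma adjusted p = 0.0114). Relative to the median of all genes, the deposited values gave 1.32 for Stim1, 0.74 for Astl, 0.67 for Cd9, -0.18 for Izumo1r and -0.40 for Orai1. In all, 1 member was higher and 0 were lower as deposited (6.58% and 1.39% of tested genes, 7.97% in all), and 1 was higher and 2 lower on per-read shares (5.60% and 16.5%, 22.1% in all).

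The other genes of the pathway were taken from 3 lists. Of 26 tested genes for the egg surface and cortical granule exocytosis, 6 were higher and 4 lower, with a median log2 change of 0.028. The shares over all tested genes were 17.4% and 17.6%. The largest p-ranked rises were in the vesicle SNARE gene Vamp2, from 0.474 to 1.61 CPM on average, the integrin gene Itgav, from 2.07 to 4.94 CPM, the secretory GTPase gene Rab3a, from 5.12 to 9.75 CPM, and Napa, which encodes an adaptor that recycles SNARE complexes, from 46.0 to 69.96 CPM. Their log2 changes were 0.83, 0.95, 0.81 and 0.59, with limma adjusted p-values between 0.000936 and 0.00121. Vamp2 rests on few reads, 10, 16 and 42 in WT and 134, 80 and 98 in Nat10 cKO libraries. Vamp2 and Itgav also passed on the deposited values and on per-read shares, Rab3a passed only on the former of these (limma adjusted p = 0.0427 and 0.0740), and Napa on neither (0.138 and 0.266). The lower genes, listed after their values were seen, were Itga6, Vamp3, Rab27a and Rph3a. With 1 library left out, Rph3a passed in 1 of 6 fits (Nat10 cKO replicate 3 left out). Once WT replicate 3 was removed, 2 genes of the list were lower, beside 2213 instead of 3232 of all 18353 tested genes. As deposited 4 were higher and 0 lower (6.58% and 1.39% of all tested genes), and on per-read shares 2 and 2 (5.60% and 16.5%).

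Among 43 tested genes for calcium stores, pumps and channels, 10 were higher and 5 lower, with a median of 0.030. Of all tested genes, 17.4% were higher and 17.6% lower. Besides Stim2 and Orai3, the genes with the smallest p included Pdia3, a disulfide isomerase of the endoplasmic reticulum. Pdia3 rose from 123 ± 5.96 to 179 ± 6.47 CPM (SD, n = 3 per group), a log2 change of 0.54, but passed on neither of the other 2 scales (limma adjusted p = 0.163 as deposited and 0.291 on per-read shares). Calr, the calcium-binding chaperone of the store, rose by 0.49, and Smdt1, a subunit of the mitochondrial calcium uniporter, by 0.57, while the pore gene Mcu had a log2 change of -0.24 that did not pass (limma adjusted p = 0.0639) but did without WT replicate 2 (0.00977) or Nat10 cKO replicate 3 (0.0478). Neither Calr nor Smdt1 passed on the other 2 scales (limma adjusted p between 0.154 and 0.318). Gna11, which encodes a G protein subunit that activates phospholipase C, rose from 6.04 to 15.1 CPM (log2 change 1.196, limma adjusted p = 0.00387) and passed on both of them. These 4 genes were chosen after their values were seen. Without Nat10 cKO replicate 2, 3 genes of the list were lower, beside 2271 instead of 3232 of all 18353 tested genes. As deposited 2 were higher and 0 lower (6.58% and 1.39% of all tested genes), and on per-read shares 2 and 5 (5.60% and 16.5%).

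Of 25 tested genes that answer the calcium signal, 4 were higher and 3 lower (17.4% and 17.6% of all tested genes), with a median of 0.034. The lower genes included Fbxo43, whose product holds the egg in metaphase until calcium rises, from 174 to 123 CPM on average, and Camk2d, from 1.10 to 0.352 CPM. Camk2d rests on few reads, 38, 24 and 92 in WT and 28, 10 and 34 in Nat10 cKO libraries. Ensa, an inhibitor of the phosphatase PP2A, rose from 42.6 to 61.2 CPM (log2 change 0.50, limma adjusted p = 0.00411), and did not pass as deposited (0.198) or on per-read shares (0.425). Fbxo43 and Camk2d passed on per-read shares (limma adjusted p = 0.00775 and 0.000495) but not as deposited (0.882 and 0.129). Camk2g, the kinase isoform through which calcium reaches the cell cycle in mouse eggs, was at 297 and 273 CPM, and Wee2, another kinase of egg activation, at 827 and 938 CPM, and neither passed, although Wee2 did without Nat10 cKO replicate 3 (limma adjusted p = 0.0457). Both were picked for their role, with their values known. The higher genes were 2 without WT replicate 1, WT replicate 3 or Nat10 cKO replicate 2. In those fits 2502, 2153 and 2188 of all 18353 tested genes were higher, instead of 3190. As deposited 0 were higher and 0 lower (6.58% and 1.39% of all tested genes), and on per-read shares 0 and 3 (5.60% and 16.5%).

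**Figure D5:**
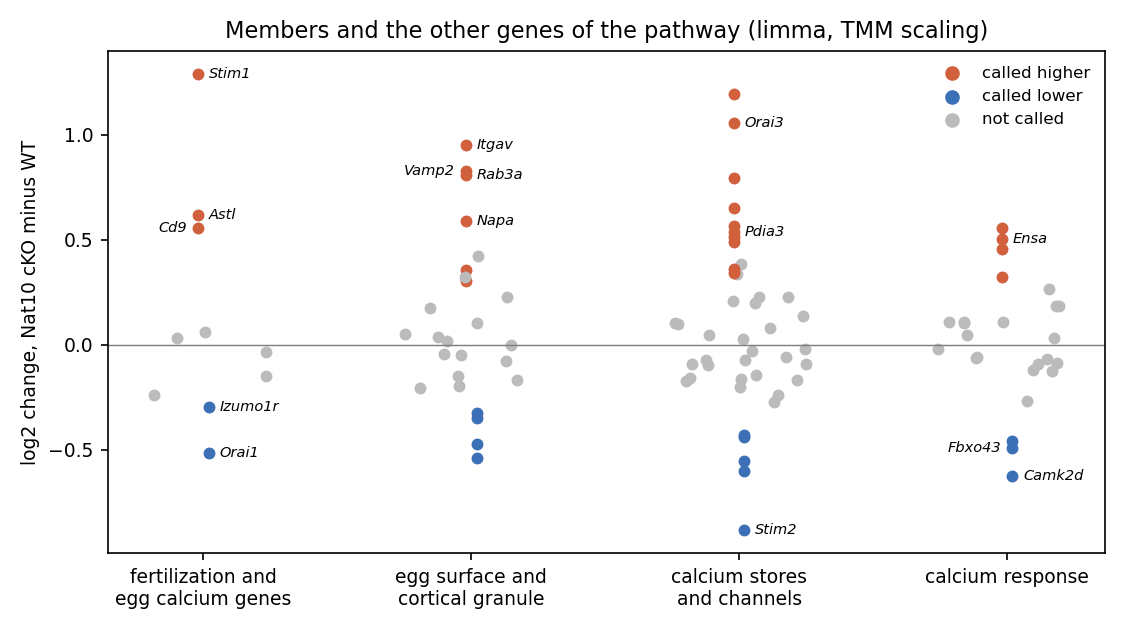
Log2 change (Nat10 cKO minus WT, TMM scaling) of the 10 members and of the tested genes of the 3 pathway lists, 1 point per gene, coloured by the limma call, with the members called and some of the 4 genes of smallest p per list named. Calls lie on both sides of 0 in each list, with 3 higher and 2 lower among the members, beside 17.4% and 17.6% of all tested genes.

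Genes of the sperm side were listed as a check on low levels. Of 6 tested, 1 was higher and 0 were lower, beside 17.4% and 17.6% of all tested genes. The higher gene was Dcst2, from 1.91 to 2.98 CPM on average (log2 change 0.45, limma adjusted p = 0.0413). The call of Dcst2 was lost on the deposited values, on per-read shares, without a filter and without any 1 library other than Nat10 cKO replicate 3 (limma adjusted p between 0.0578 and 0.402). Plcz1, the sperm phospholipase, had 0 reads in every library, and Izumo1 had 2 to 16 reads. The most abundant of the 15 listed sperm genes were Prm2, at 9.32 CPM in WT against 8.33 CPM in Nat10 cKO libraries, and Catsper2, at 6.41 and 5.06 CPM. Per kilobase, Prm2 stood at 10.4 and Catsper2 at 1.74 CPM per kb in WT, above the WT levels of Cd81 (0.543), Stim1 (0.397) and Orai3 (0.875) on the same scale. Exons of Catsper2 overlap those of Pdia3 on the opposite strand, which averaged 123 CPM in WT. Without counting by strand, reads of that pair cannot be told apart.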

How the data were processed

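The 6 pools went through Smart-seq2, which copies polyadenylated RNA from an oligo-dT primer and amplifies the cDNA. ERCC spike-in, 0.2 µl of a 1000-fold dilution, was added per the labels, and the table held 0 rows under ERCC names. The submitters' processing notes name mm10, STAR 2.7.10a, Trim Galore 0.6.7 and featureCounts. No settings or annotation are given in the sources used here. For WT replicate 1 the authors deposited whole read counts. For the remaining 5 libraries they deposited a scaled signal, each read count times 1 factor per library (0.908 to 1.38) of unstated formula. Whole reads came back for 100% of values, to within 0.001, on division by that factor. Between 83.6% and 87.1% of read numbers from 1 to 10 were even, and no source used here says whether mates of a pair were counted separately. Limits set by a count of 0 (3 reads) cover counting error only.

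The main test was limma 3.58.1 (trended, robust, two-sided) on log2(CPM + 1) of recovered reads with TMM factors from edgeR 4.0.16, for the 18353 genes kept by filterByExpr at a minimum count of 10. The p-values were adjusted by Benjamini-Hochberg over all of them, with a threshold of 0.05. The alternatives were edgeR, DESeq2 1.42.0, other scalings, filters and pseudocounts, a replicate block, and leaving out each library. Positions and lengths came from GENCODE M21 (GRCm38), and sequences from RefSeq. Exons of 6 of the 10 members overlap a gene on the opposite strand, which except for Gm2479 averaged under 1 CPM. The members and lists were chosen with earlier results of these data known. Named genes were all members, their paralogs, the 4 genes of smallest p in each pathway list, the 4 most abundant of a marker list or of the sperm list, and the 3 closest profiles to each of the 2 members with the smallest p. Some genes that this rule names are not reported here. R 4.3.3, Python 3.11.15 and matplotlib 3.10.9 were used. The test was tested on simulated data with known changes.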

Additional observations from a re-analysis of the deposited data

How the results depend on the processing

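Against 3190 higher and 3232 lower of 18353 genes in all, the deposited values gave 1207 and 255, and the deposited factors on per-read shares 1027 and 3028. Without a filter, 2601 were higher and 2323 lower of 32265 genes. The members called higher were 1 under each of these 2 scalings, and those called lower were 0 as deposited. For the surface and cortical granule list, 0 were lower as deposited, 2 were higher and 2 lower on per-read shares, and 2 were lower without a filter. The calcium stores and channels list had 2 higher under each scaling and 0 lower as deposited. The calcium response list had 0 higher under each and 0 lower as deposited. The sperm list had 0 higher under each and without a filter, and 0 to 1 with 1 library left out. The cause of these differences was not tested. As deposited, Izumo1r, Itpr1, Atp2a2 and Trpm7 changed sign, to 0.066, 0.21, 0.12 and 0.32 on the log2 scale, and on per-read shares Cd81 and Cacna1h did, to -0.080 and -0.18. Of the other genes named, Cacna1i (0.16), Cd151 (0.30), Vamp3 (0.0065), Rph3a (0.030), Camk2g (0.24), Mcu (0.12) and Gm2479 (0.13) changed sign as deposited, and Itpr2 (-0.17) and Wee2 (-0.035) on per-read shares. Leaving out 1 library gave 2153 to 3375 higher and 2213 to 3356 lower genes, 3 members higher and 1 to 3 lower, 5 to 7 and 2 to 5 for the surface and cortical granule list, 8 to 12 and 3 to 6 for calcium stores and channels, and 2 to 5 and 3 for calcium response. It also turned the uncalled changes of Cd81 (range -0.096 to 0.18, below 0 without Nat10 cKO replicate 3), Trpm7 (range -0.13 to 0.051, above 0 without WT or Nat10 cKO replicate 2) and Cacna1h (range -0.063 to 0.18, below 0 without WT replicate 1, WT replicate 3 or Nat10 cKO replicate 3), and those of Itpr2 (range -0.0021 to 0.097) and Cd151 (range -0.13 to 0.00016). The share gained by Stim1 was 28.0 percentage points with the longest transcript.

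The groups share replicate numbers without a stated pairing. Deviations of same-numbered libraries correlated at 0.079, 0.075 and -0.12, and WT replicate 3 correlated best with Nat10 cKO replicate 1 (0.24). Correlations from so few libraries cannot show whether same-numbered libraries were collected together. With the replicate block, 3070 genes were higher and 3164 lower, and 3 members were higher and 2 lower.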
